A study of Mus musculus with 16 samples.

Results

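The regions described here were open chromatin that appeared in mouse hematopoietic progenitors when the Gata2 -77 enhancer was deleted and that closed again when GATA2 was returned. A peak is a stretch of DNA with more transposase cuts than the background, so a peak in ATAC-seq marks open chromatin. Peaks from 16 libraries were merged into 90549 regions, and 1238 of them (1.37%) carried a peak in 4 of 4 libraries of enhancer-deleted cells with empty vector, in 0 of 4 wild type libraries and in 0 of 4 libraries of enhancer-deleted cells given GATA2. The regions were thus chosen by the peaks of those 12 libraries, whose values at the 1238 regions are given as a description. The 4 libraries of enhancer-deleted cells given the 9aa-Ins variant had no part in the choice.

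All cells were fetal liver hematopoietic progenitors immortalized with HoxB8, grown with β-estradiol, infected with retrovirus for 3 d and sorted for GFP. The wild type genotype is written hi-77+/+ and the enhancer-deleted genotype hi-77-/-. The groups were hi-77+/+ with empty vector, hi-77-/- with empty vector, hi-77-/- with GATA2 and hi-77-/- with 9aa-Ins, a disease-associated GATA2 with an insertion that displaces its zinc fingers, at 4 libraries each. The labels name no separate lines within a genotype, so an effect of the deletion cannot be told apart from a difference between immortalized lines, and the p-values below measure the spread between these libraries, which may be technical. GATA2 and 9aa-Ins came from a retroviral vector and not from the Gata2 locus.

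GATA2 is a zinc finger transcription factor that binds WGATAR sequences, in which W is A or T and R is A or G, and maintains hematopoietic stem and progenitor cells. The -77 enhancer raises Gata2 expression in myelo-erythroid progenitors. EBF1 is a factor that commits progenitors to the B cell lineage and recognises a palindrome in which CCC and GGG lie 2 bases apart. PU.1, an ETS factor encoded by Spi1, drives monocyte, dendritic and early B cell programs and can bind together with IRF4 or IRF8 at composite ETS-IRF elements.

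The sequences below show the letters that were more frequent in these regions than in the rest of the open chromatin. All are from the forward strand of the RefSeq GRCm38.p6 assembly, which is mm10, and each has a marked motif with 50 bases on either side. The flanks can hold further, unmarked matches. The first 5 come from the regions of highest peak rank that kept a peak in 4 of 4 9aa-Ins libraries, and capitals mark the EBF core CCCNNGGG nearest to the peak summit.
Zfp619, chr7:39664476-39664583: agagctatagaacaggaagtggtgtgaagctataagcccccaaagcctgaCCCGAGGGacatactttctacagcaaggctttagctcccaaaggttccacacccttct
Rgs6, chr12:83040028-83040135: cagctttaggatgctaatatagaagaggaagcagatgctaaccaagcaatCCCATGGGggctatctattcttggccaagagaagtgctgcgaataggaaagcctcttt
Hs6st1, chr1:36052806-36052913: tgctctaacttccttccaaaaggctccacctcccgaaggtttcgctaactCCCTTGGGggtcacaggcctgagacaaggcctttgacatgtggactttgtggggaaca
Rhoq, chr17:86968208-86968315: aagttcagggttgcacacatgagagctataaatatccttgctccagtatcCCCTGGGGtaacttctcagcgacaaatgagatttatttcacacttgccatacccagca
Grm4, chr17:27447524-27447631: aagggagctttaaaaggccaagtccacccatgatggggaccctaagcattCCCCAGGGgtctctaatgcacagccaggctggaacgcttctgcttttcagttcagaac

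The next 3 sequences carry the same core, in capitals, and come from regions with no peak in any 9aa-Ins library among the 49,000 strongest. In each of them the core lay within 29 bp of the summit, and the closest was the one near Stt3b.
Crygn, chr5:24749814-24749921: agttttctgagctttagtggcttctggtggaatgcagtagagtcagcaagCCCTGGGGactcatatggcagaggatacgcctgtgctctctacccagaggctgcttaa
Stt3b, chr9:115451095-115451202: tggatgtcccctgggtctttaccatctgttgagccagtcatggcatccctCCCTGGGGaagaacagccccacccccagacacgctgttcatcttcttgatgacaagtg
Bean1, chr8:104185074-104185181: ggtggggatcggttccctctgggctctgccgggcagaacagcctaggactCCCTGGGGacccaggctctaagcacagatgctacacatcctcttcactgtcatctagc

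A pair of regions with no such 9aa-Ins peak held an ETS-IRF composite, in which GGAA and GAAA lie 2 bases apart. Capitals mark the composite, which is read on the reverse strand in Cdh23 and on the forward strand upstream of Kcns2.
Cdh23, chr10:60639407-60639516: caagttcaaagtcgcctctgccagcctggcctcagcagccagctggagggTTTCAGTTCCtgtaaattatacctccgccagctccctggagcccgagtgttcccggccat
Kcns2, chr15:34775893-34776002: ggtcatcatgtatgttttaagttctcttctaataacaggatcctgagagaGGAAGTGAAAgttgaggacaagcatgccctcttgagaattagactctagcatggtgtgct

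The deposited lists held between 49852 and 111743 peaks per library on the autosomes and X, and the number of reads behind them is unknown. To compare lists of unequal length, the 49,000 peaks of lowest p were kept from each, and a rank of 1 is the strongest peak of a library. The -log10 p of the last peak kept was 7.38 to 8.13 in hi-77-/- empty libraries, 8.75 to 11.7 in 9aa-Ins libraries, 5.35 to 7.43 in GATA2 libraries and 8.34 to 9.70 in hi-77+/+ libraries, so a peak had to be stronger to be kept from any 9aa-Ins library than from a hi-77-/- empty or GATA2 library. As a check of the labelled cell type, promoters of all 10 progenitor genes examined, among them Kit, Cd34, Spi1 and Runx1, carried a peak in all 16 libraries. Of 10 genes of hepatocytes, stroma, endothelium and epithelium, 5 (Alb, Afp, Ttr, Col1a2 and Cdh1) had a promoter peak in no library, Pecam1 had one in 16, Col1a1 in 15, Epcam in 4, Cdh5 in 2 and Apoa1 in 1.

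The deletion opened 3251 regions by the first part of the rule, a peak in 4 of 4 hi-77-/- empty and 0 of 4 hi-77+/+ libraries (3.59% of all regions). GATA2 closed 2021 regions by the other part (2.23%). The 1238 regions were 38.1% of those opened and 61.3% of those closed, and both steps rest on the same 4 hi-77-/- empty libraries. Both sets could come only from the 32850 regions with a peak in all of these libraries, so some overlap is set by the rule. Just outside the rule, 490 regions differed from it by a peak in 1 GATA2 library, 282 by a peak in 1 hi-77+/+ library and 964 by a missing peak in 1 hi-77-/- empty library. The weakest hi-77-/- empty peak of a region ranked 38820 in the median, and in 328 of the 1238 regions it ranked past 44100.

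Absence of a peak among the 49,000 strongest was often absence of a strong peak and not of any peak. With all deposited peaks, hi-77+/+ libraries held a peak at 15.8% to 40.7% of the 1238 regions, and GATA2 libraries at 0.404%, 28.0%, 3.47% and 30.5%. In 344 regions (27.8%) no deposited peak of any hi-77+/+ or GATA2 library was found. The 2 GATA2 libraries with the shortest lists, 49852 and 53743 peaks, were those with the fewest weak peaks at these regions.

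**Figure D1:**
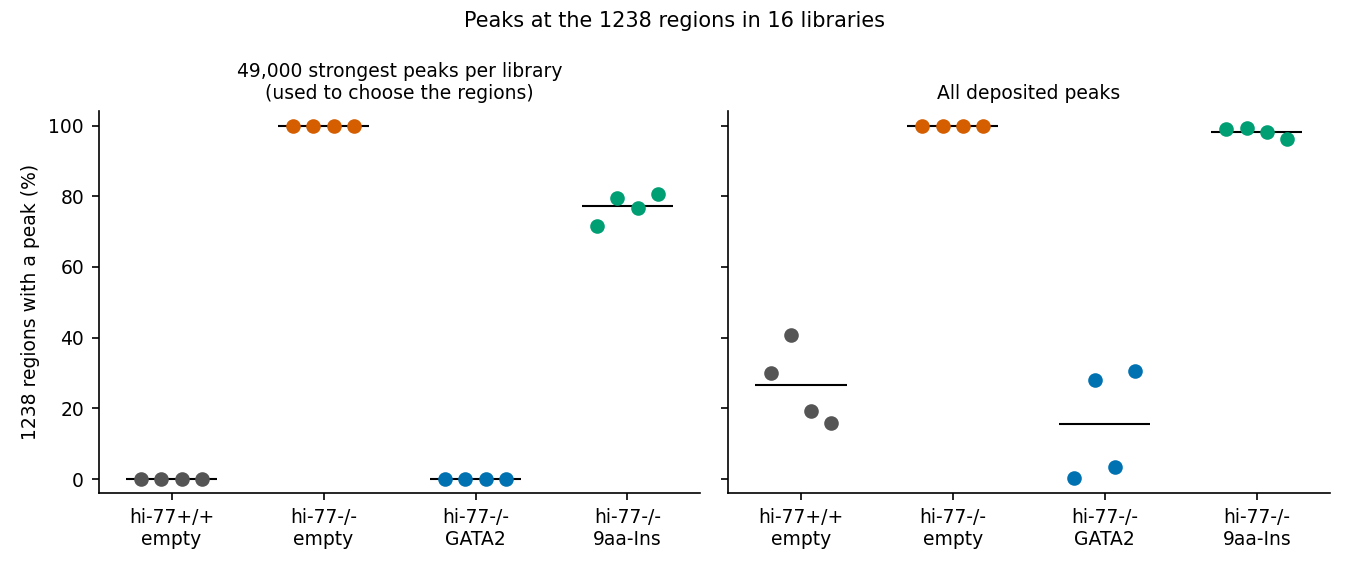
Share of the 1238 regions with a peak (vertical axis, percent) in each of 16 libraries (points) by group, with the group mean as a bar, for the 49,000 strongest peaks of each library (left) and for all deposited peaks (right). On the left, only the 9aa-Ins points (71.7% to 80.7%) were free to vary; on the right the 9aa-Ins libraries reached 96.1% to 99.4%. The regions were chosen by the other 3 groups, so their points are a description on both sides.

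Most of these regions had a peak in the 9aa-Ins libraries, whereas the rule itself left the GATA2 libraries with none. Peaks were present at 71.7%, 79.5%, 76.8% and 80.7% of the 1238 regions in 9aa-Ins replicates 1 to 4 (77.2% ± 3.98, SD, n = 4). This was below their share over all regions with a peak in 4 of 4 hi-77-/- empty libraries (96.3% ± 0.660, SD, n = 4). With all deposited peaks the share of the 1238 regions was 98.2% ± 1.48 (SD, n = 4), and 1168 regions (94.3%) had a peak in every 9aa-Ins library.

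By the number of 9aa-Ins libraries with a peak among the 49,000 strongest, 696 regions (56.2%) had 4, 216 (17.4%) had 3, 141 (11.4%) had 2, 108 (8.72%) had 1 and 77 (6.22%) had none. Among all 32850 regions with a peak in 4 of 4 hi-77-/- empty libraries, 90.9% had 4 and 0.472% had none. These counts compare 9aa-Ins with the same hi-77-/- empty libraries that chose the regions. Of the 77 regions with none, 76 had a weaker 9aa-Ins peak in at least 1 full list and 35 had one in all 4.

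The regions that 9aa-Ins left without a strong peak had weaker and narrower peaks in hi-77-/- empty cells. The median over regions of the hi-77-/- empty rank was 27372 where 4 9aa-Ins libraries had a peak and 37131 where none had. The median width of their hi-77-/- empty peaks was 267 bp with 4, 214 bp with 3, 214 bp with 2, 221 bp with 1 and 184 bp with none. In the 25% of the 1238 regions with the strongest hi-77-/- empty ranks, 85.8% had a peak in 4 of 4 9aa-Ins libraries, and in the weakest 25%, 32.0%. Over the same ranges of rank, all regions with a peak in 4 of 4 hi-77-/- empty libraries gave 99.1% and 47.0%.

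Among the 3251 regions opened by the deletion, those that GATA2 closed were also those where 9aa-Ins peaks were most often missing. A peak in 4 of 4 9aa-Ins libraries was found at 56.2% of regions with no GATA2 library, 77.1% with 1, 80.8% with 2, 86.6% with 3 and 93.3% with 4. At the 817 regions where GATA2 left a peak in all 4 libraries, 7 (0.857%) had no 9aa-Ins peak. The regions kept with GATA2 also had stronger peaks, with a median hi-77-/- empty rank of 24297 against 30917 in the 1238 regions; over the ranks of the weakest 25% of the 1238 regions, the share with 4 9aa-Ins libraries was 67.4% in the kept regions and 32.0% in the regions closed again.

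**Figure D2:**
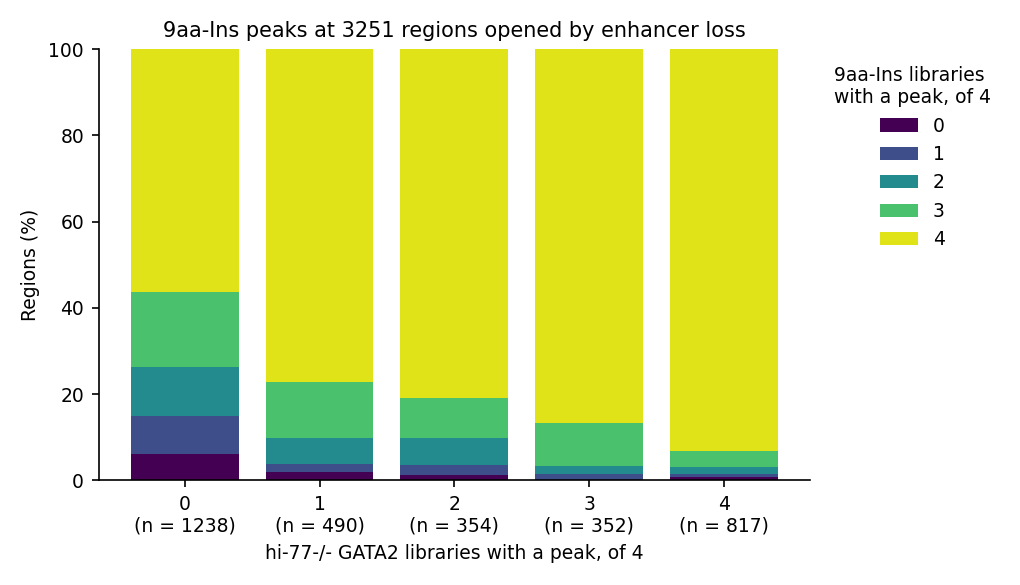
Share of the 3251 regions opened by enhancer loss (vertical axis, percent) with a peak in 0 to 4 9aa-Ins libraries (colors), by the number of GATA2 libraries with a peak (horizontal axis). The left bar is the 1238 regions closed again by GATA2, of which 56.2% had a peak in all 4 9aa-Ins libraries against 93.3% in the right bar.

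To compare 9aa-Ins with a group on regions that did not use the library measured, the regions were chosen again with 1 library left out, and that library was read at the regions the other 11 had chosen. Left-out GATA2 libraries had a peak at 5.78%, 9.57%, 8.84% and 11.6% of these 1314 to 1401 regions, and 9aa-Ins libraries at 73.3% to 81.7%. The 9aa-Ins share was higher by 69.4 percentage points (78.4% ± 3.77 against 8.96% ± 2.42, SD, n = 4 each; exact two-sided permutation test, p = 0.0286, adjusted over 3 comparisons 0.0286). Left-out hi-77+/+ libraries had a peak at 8.09%, 5.93%, 4.40% and 2.98%, and 9aa-Ins was higher by 72.1 percentage points (77.5% ± 3.82 against 5.35% ± 2.19, SD, n = 4 each; exact two-sided permutation test, p = 0.0286, adjusted 0.0286). In both comparisons every 9aa-Ins library lay above every left-out library, and 0.0286 is the smallest p that 4 against 4 allows. The other libraries of the left-out group still had to lack a peak at these regions, and no such limit was set on the 9aa-Ins libraries. A low share in a left-out library is thus partly built into the choice. A trait shared by the left-out group alone would also lower its share, and such a trait was not tested for. Each 9aa-Ins value is a mean over the 4 choices.

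Against left-out hi-77-/- empty libraries the difference was smaller and ran the other way. These had a peak at 80.3%, 85.3%, 80.5% and 89.3% of 1386 to 1541 regions, and 9aa-Ins libraries at 67.5%, 75.5%, 72.5% and 76.5%. The 9aa-Ins share was lower by 10.9 percentage points (73.0% ± 4.07 against 83.9% ± 4.31, SD, n = 4 each; exact two-sided permutation test, p = 0.0286, adjusted 0.0286), with no overlap between the groups. The direction turned with all deposited peaks, where 9aa-Ins was higher by 4.82 percentage points (exact permutation test, adjusted p = 0.286). When a peak had to cover 50% of the region the difference was -1.70 percentage points (exact permutation test, adjusted p = 0.686), so a partial loss of these regions with 9aa-Ins depends on how peaks are counted. The regions were also still chosen by the other hi-77-/- empty libraries. A trait shared by that group alone would raise its left-out share above that of 9aa-Ins without any effect of the variant. Such a trait was not tested for.

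**Figure D3:**
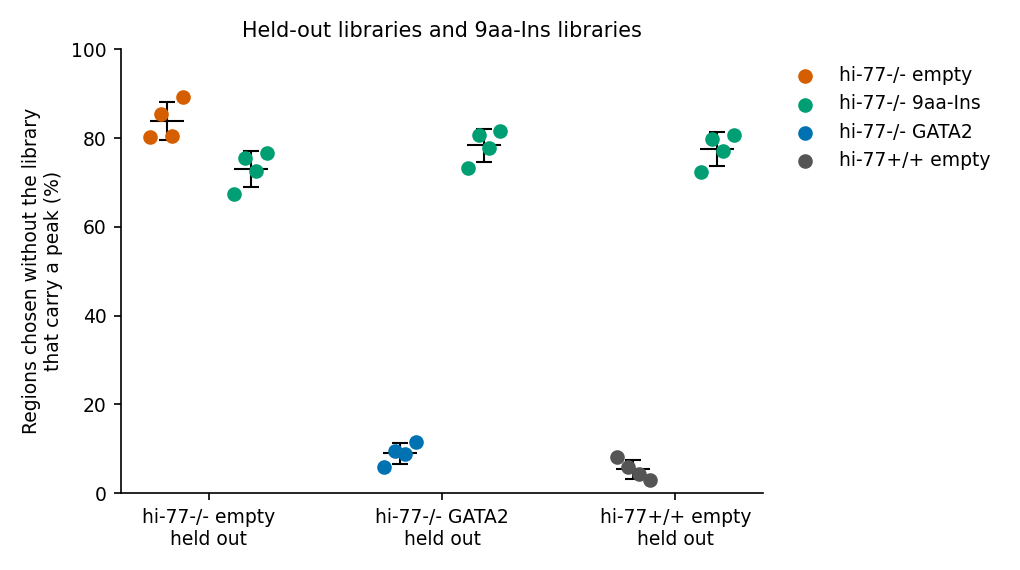
Share of regions with a peak (vertical axis, percent) in left-out libraries of 3 groups and in the 9aa-Ins libraries at the same regions; points are libraries, and the black marks are the mean and SD (n = 4). The 9aa-Ins points lie between 67.5% and 81.7% throughout, far above left-out GATA2 and hi-77+/+ libraries and below left-out hi-77-/- empty libraries.

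The 1238 regions lay mostly away from promoters. A transcription start site (TSS) of a protein-coding gene was within 3 kb of 147 regions (11.9%), against 27.3% of all regions and 15.9% of the 817 kept with GATA2. Of the summits, 609 (49.2%) lay in introns, 581 (46.9%) between genes, 25 in coding exons and 23 in UTRs. Over all regions, 44.7% lay in introns and 47.0% between genes. The median distance of a summit from the nearest TSS was 23.4 kb, against 12.7 kb over all regions and 24.7 kb in the kept regions. Of the 1238, 214 (17.3%) lay over 100 kb away, against 10.0% of all regions and 17.5% of the kept ones. Distance thus did not separate regions that GATA2 closed from those it kept. The median length was 384 bp. By chromosome, the share of regions was lowest against the peaks present on chromosome 8, with 2.14 for every 100 regions open in 4 of 4 hi-77-/- empty libraries, and highest on chromosome 1, with 4.99.

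The EBF core was more frequent in the 1238 regions than in the other regions opened by the deletion. In the 200 bp around the summit, CCCNNGGG was found in 350 of 1238 regions (28.3%, 95% Wilson interval 25.8% to 30.8%, which covers counting error only), in 9.75% of all regions and in 8.20% of the 817 regions kept with GATA2. Among regions with a peak in 4 of 4 hi-77-/- empty libraries the share was 13.2%. This motif is its own reverse complement. In the form with T before and A after, the share was 8.32% against 1.50% of all regions and 1.47% of the kept regions. Shares of this kind describe the regions, and no test was run on them.

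The EBF share was lower the more GATA2 libraries kept a peak at an opened region, at 28.3% with none and 16.1%, 15.0%, 10.2% and 8.20% with 1, 2, 3 and 4. The WGATAR share ran the other way over the same series, at 16.1%, 17.1%, 21.8%, 25% and 31.7%. The EBF core was equally common, 29.7%, in the 172 regions that were open in hi-77+/+ cells, stayed open after the deletion and closed with GATA2. The contrast was also seen within ranges of peak strength. With the 1238 regions split by hi-77-/- empty rank into 4 equal groups, from strongest to weakest, the EBF share was 37.7%, 31.1%, 22.3% and 22.0% in the 1238 regions and 9.35%, 7.74%, 6.82% and 6.98% in the kept regions over the same ranks.

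WGATAR was less frequent in the 1238 regions (16.1%) than in all regions (26.3%), both strands searched. It was nearer to the 19.3% of the 32850 regions with a peak in 4 of 4 hi-77-/- empty libraries, of which 40.9% lay within 3 kb of a TSS. Without regions that near a TSS, the WGATAR share was 15.8% of the 1238 and 24.4% of the 4 of 4 regions. It was then 33.5% of the kept regions and 29.3% of all. The contrast with all regions depended on the window, at 8.32% against 14.5% in the central 100 bp and 36.3% against 38.7% over the whole region. GGAAGT, the core of many ETS sites, was found in 41.1% of the 1238 regions, in 39.7% of the kept regions and in 27.9% of all regions. Among regions with a peak in 4 of 4 hi-77-/- empty libraries it was found in 32.6%. Over 3 kb from a TSS, the shares were 41.8% of the 1238, 41.6% of the kept and 36.5% of the 4 of 4 regions. It thus did not separate regions that GATA2 closed from those it kept. ETS-IRF composites were found in 6.46% of the 1238 regions, against 3.30% of the kept regions and 2.18% of all. The E-box CAGCTG, which E2A and other basic helix-loop-helix factors bind, was found in 23.3%, against 19.2% and 14.4%, and the RUNX core TGTGGT in 34.2%, against 35.1% and 24.6%. The motif TTGCNNCAA of C/EBP factors, which drive granulocyte genes, was rare (0.727%, against 2.45% of the kept regions and 1.68% of all), and CTCF sites were found in 2 regions (0.162%, against 0.367% of the kept regions and 5.77% of all). Leaving out regions within 3 kb of a TSS, the EBF share was 28.2%, against 8.76% of all such distal regions and 7.28% of the kept ones.

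Motif letters were placed differently around the summit. Within 50 bp of it there were 24.6 EBF cores for every 100 of the 1238 regions, 6.12 for every 100 kept regions and 7.06 for every 100 regions overall. Between 300 and 500 bp away, the 1238 regions held 3.84 for every 100 regions and 100 bp, close to the 3.56 of all regions. GGAAGT was centred on the summit in both opened sets, with 34.3 and 31.6 for every 100 regions within 50 bp. WGATAR matches numbered 9.53 at the summit of the 1238 regions, below their own flanks at 18.6, whereas the kept regions held 19.5 at the summit and 19.8 in the flanks. The 172 regions open in hi-77+/+ cells and closed by GATA2 showed the same placement, with 26.7 EBF cores within 50 bp of the summit and WGATAR at 5.81 there against 22.5 in the flanks, so it was not particular to regions opened by the deletion.

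**Figure D4:**
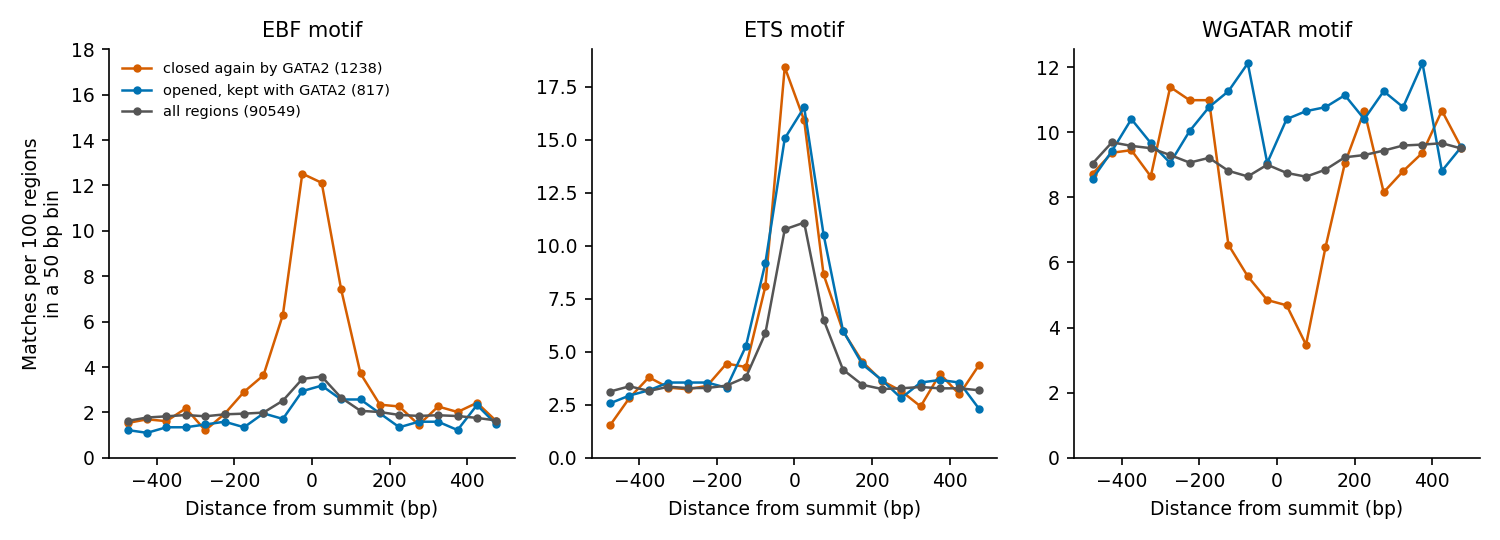
Motif matches for every 100 regions in 50 bp bins (vertical axes) by distance from the summit (horizontal axes, bp) for the 1238 regions closed again by GATA2, 817 opened regions kept with GATA2 and all 90549 regions. EBF cores peak at the summit in the first set, ETS cores peak in both opened sets, and WGATAR dips at the summit in the first set.

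By number of 9aa-Ins libraries, the EBF and WGATAR shares had no steady order. The EBF share was 31.2% in the 77 regions with no 9aa-Ins peak and 28.7%, 31.9%, 27.8% and 27.3% in those with 1, 2, 3 and 4. The WGATAR share was 16.9%, 16.7%, 21.3%, 15.7% and 14.9% in the same order. GGAAGT was found in 31.2%, 33.3%, 40.4%, 44.4% and 42.5%, so it was less frequent with 0 or 1 9aa-Ins library than with more. In the 4 groups by hi-77-/- empty rank, from strongest to weakest, its share was 39.4%, 40.8%, 44.2% and 40.1%. The longer ETS form GAGGAAGT had no steady order by 9aa-Ins libraries, at 15.6%, 7.41%, 12.1%, 10.6% and 12.8%. The EBF form with T before and A after was found in 15.6%, 6.48%, 10.6%, 7.87% and 7.47%, in the order from 0 to 4 libraries. In that order the IRF motif GAAANNGAA was found in 10.4%, 7.41%, 2.13%, 8.80% and 4.60%. CAGCTG was found in 31.2%, 18.5%, 19.9%, 20.8% and 24.7%. None of these had a steady order, and their first values rest on 12, 8 and 24 of the 77 regions.

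Each region was assigned to the protein-coding gene with the nearest TSS, a rule of position that does not show which gene a region regulates. The 1238 regions fell to 1054 genes, 6.12% of the 17227 genes with any region. Of these genes 921 had 1 region, 91 had 2 and 42 had 3 or more. Other members of the set lay within 50 kb of 243 regions (19.6%).

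Cd47, the ligand by which cells signal against phagocytosis, had the most regions, 5 of the 47 assigned to it, from 7.08 to 157 kb from a TSS. They varied with 9aa-Ins, as 1 region had a peak in 4 libraries, a pair in 2 and a pair in none. Bnc2, a zinc finger gene, had 4 of 19, all with a peak in 4 of 4 9aa-Ins libraries and 3 of them with an EBF core. Tns1, which encodes the adhesion protein tensin, had 4 of 28 within 7.40 kb of its TSSs, 3 with an EBF core. Tgfbr2, a receptor of TGF-β, had 4 of 34, from 95.1 to 302 kb away, none with an EBF core. Fbxw7, a subunit of a ubiquitin ligase that acts on MYC and NOTCH, and Gadd45g, a stress response gene, had 4 of 23 and 4 of 28. Sash1 had 4 of 21, and Tas1r2, a taste receptor gene, had 4 of 11.

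Of 36 genes of the B lineage, 32 had any region and 8 had one of the 1238. Regions of that kind were 13 of the 259 assigned to the list (5.02%), against 1.37% of all regions. A few of these genes act at the antigen receptor loci. Dntt, which encodes the polymerase that adds bases at V(D)J junctions, had 3 regions, 6.89 kb upstream and 9.03 and 9.92 kb inside the gene, the last pair in an intron. Rag2, a subunit of the recombinase, had 2, and Vpreb2, part of the surrogate light chain, had 1 at 10.7 kb upstream. Pax5, the factor that maintains B cell identity, had 1 in an intron (chr4:44705782-44706298), with ranks of 24222, 27632, 17526 and 25983 in hi-77-/- empty libraries and 29441, 27487, 39043 and 25346 in 9aa-Ins libraries. Ms4a1, which encodes CD20, had 1 in an intron (chr19:11261386-11261889) that held both an EBF core and an ETS-IRF composite. Its ranks were 20312 to 29548 in hi-77-/- empty and 25457 to 39686 in 9aa-Ins libraries, which overlapped. Foxo1 and Bcl11a, factors needed early in B cell development, had 2 each, and Blk, a kinase of the B cell receptor, had 1. The remaining genes of the list had none, among them Ebf1, Igll1, Vpreb3, Cd79a, Cd79b, Rag1 and Myl4.

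At Bcl11a and Foxo1 the 2 regions behaved differently with 9aa-Ins. The Bcl11a region 120 kb downstream of the TSS, which held an EBF core, ranked 25118, 21029, 22435 and 19899 in hi-77-/- empty libraries and 60646, 52729, 55144 and 46123 in 9aa-Ins libraries. The one 277 kb downstream ranked 21347 to 26739 and 20036 to 26856. At Foxo1, the region 176 kb downstream had a peak in 4 of 4 9aa-Ins libraries and the region 371 kb downstream in 1.

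Of 33 monocyte and dendritic cell genes, all had a region and 10 had one of the 1238 (14 of 409 regions, 3.42%). Id2, an inhibitor of E proteins, had 3 from 67.7 to 120 kb upstream. Klf4, a monocyte factor, had 2, and the nearer one at 53.9 kb upstream held an EBF core. Ly86, a partner of RP105 in sensing, had 2 in introns, of which the one at 3.09 kb had a peak in 4 9aa-Ins libraries and the one at 11.0 kb, with an ETS-IRF composite, in none. Mef2c, a factor of the B and myeloid lineages, had 1 in an intron, and Cebpa, Irf8, Zeb2, Maf, Csf1r and Tlr7 had 1 each. The region of Cebpa, the master factor of myeloid progenitors, lay 20.4 kb upstream with a peak in 4 of 4 9aa-Ins libraries.

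Cytokine receptor genes had 12 of 352 regions (3.41%), in 8 of 40 genes. Il21r had the strongest of them, 14.5 kb upstream (chr7:125588765-125589167), with ranks of 11598, 22261, 11305 and 12111 in hi-77-/- empty libraries and 21757, 29364, 21140 and 30692 in 9aa-Ins libraries. Il10ra, the ligand-binding chain of the interleukin 10 receptor, had 2, one with an EBF core in a UTR 14.6 kb from the TSS and one 11.9 kb upstream. Ifnar2, Il13ra1, Tnfrsf1b, Il6st and Lifr had 1 each.

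Stem and progenitor genes had 15 of 387 regions (3.88%), in 9 of 22 genes. Runx1 and Lmo2, core factors of blood stem cells, had 3 each, and Erg, an ETS factor, had 2 in an intron, both with an EBF core. Hlf had 2, and Gfi1b, Meis1, Myc and Zfpm1 had 1 each. Gata2 itself had 1, 47.8 kb upstream (chr6:88145840-88146260), with ranks of 24538, 13631, 28245 and 17702 in hi-77-/- empty libraries and 29706, 22658, 18322 and 18320 in 9aa-Ins libraries, which overlapped. This region held GGAAGT and CAGCTG but no WGATAR in its central 200 bp. The lists of hi-77+/+ replicates 1 and 2 and of GATA2 replicates 1 to 3 held no peak there, and the peaks of the others ranked 63465, 65471 and 57761.

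The other lists held fewer of the regions in number. T and NK cell genes had 4 of 94 regions (4.26%), at Tcf7, Notch1 and Cd5, the last with 2. The Tcf7 intron region held an EBF core and ranked 16493 to 27452 in hi-77-/- empty and 29165 to 41083 in 9aa-Ins libraries, without overlap. The list of erythroid, megakaryocyte and mast cell genes had 3 of 145 (2.07%), near Tgfb3 and 783 kb from Gata3. Those near Tgfb3 lay 31.5 and 35.6 kb from its TSS, in intron sequence of another gene, Ttll5. No other gene of that list, such as Gata1, Klf1, Itga2b, Hdc or Cpa3, had any. Innate sensing genes had 3 of 204 (1.47%), at Ifi208, Tlr1 and Trem2, which is close to the 1.37% of all regions. Tlr7 was not in that list, as it was counted above with the monocyte and dendritic cell genes. The 17 neutrophil genes had none of their 86 regions. The lists differ in how many regions a gene had, from a median of 3 for innate sensing to 16 for stem and progenitor genes, so shares of regions and not of genes are compared.

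The strongest of the regions with a peak in 4 of 4 9aa-Ins libraries was near Zfp619, a zinc finger gene whose TSS is 147 kb away (chr7:39664155-39664897). It ranked 6267, 5472, 12034 and 6065 in hi-77-/- empty libraries and 18990, 18264, 15332 and 15451 in 9aa-Ins libraries, and no hi-77+/+ or GATA2 library had a deposited peak there. Hs6st1, a heparan sulfate sulfotransferase gene, had the same pattern 15.6 kb upstream (chr1:36052616-36053151), with ranks of 7545, 8892, 8408 and 15026 against 19506, 14049, 12725 and 15194. At Zfp619 all 9aa-Ins ranks lay behind all hi-77-/- empty ranks, and at Hs6st1 the groups overlapped.

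In an intron of Rgs6, which encodes a regulator of G protein signaling (chr12:83039746-83040420), the ranks were 10370, 5182, 8229 and 6561 in hi-77-/- empty libraries and 16950, 13329, 15561 and 12202 in 9aa-Ins libraries. Weak peaks were deposited there in all 4 hi-77+/+ libraries, at 49331 to 110095, and in 2 GATA2 libraries, at 51827 and 52541. Rhoq had a region of 1345 bp in an intron 5.00 kb from its TSS, the longest of these 8. Its ranks were 9237 to 10517 in hi-77-/- empty and 11079 to 15891 in 9aa-Ins libraries. The other 4 of the 8 strongest were near 4931429L15Rik, Setbp1, Grm4, a glutamate receptor gene, and Serpinb1c, with median hi-77-/- empty ranks of 10033, 10817, 11409 and 11797. An EBF core lay in the central 200 bp of 6 of the 8, the exceptions being 4931429L15Rik and Setbp1.

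The strongest regions with no 9aa-Ins peak among the 49,000 had lower ranks throughout. The first lay 140 kb upstream of Tet2, a DNA demethylase gene often mutated in blood disease (chr3:133685532-133685719), and ranked 20669, 27603, 37920 and 22885 in hi-77-/- empty libraries. Its 9aa-Ins peaks ranked 73507, 70872 and 61183 in replicates 1, 2 and 4, and replicate 3 had none. It was short, at 188 bp, and held WGATAR and GGAAGT. In an intron of Cdh23, a cadherin gene, the ranks were 42331, 24138, 28798 and 26667 against 77708, 65488, 54890 and 67964.

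At the region 61.4 kb upstream of the potassium channel gene Kcns2, with the ETS-IRF composite shown above, they were 43646, 18744, 32560 and 23748 against 50651, 77554, 56486 and 58834. Both regions had a weak peak in every 9aa-Ins library and none in any hi-77+/+ or GATA2 library. The same held for the 3 regions with EBF cores shown above, near Crygn, Stt3b and Bean1. The region in an intron of Polr1a, which encodes a subunit of RNA polymerase I, had a weak peak in 1 9aa-Ins library, and the one in an intron of Akap6 in 3.

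**Figure D5:**
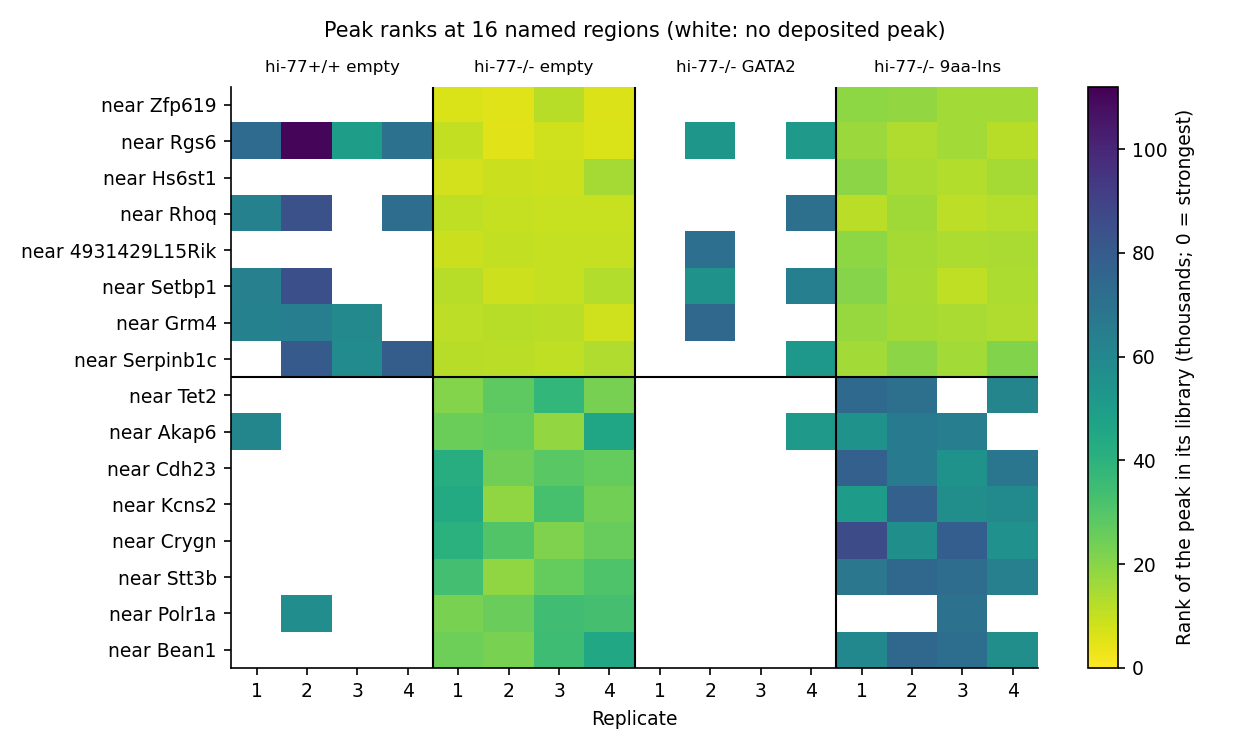
Rank of the peak in its library (color, with low values the strongest) at 16 regions (rows, by nearest gene) in 16 libraries (columns). White marks no deposited peak. The upper 8 rows had a peak in 4 of 4 9aa-Ins libraries and the lower 8 in none among the 49,000 strongest, where 9aa-Ins peaks ranked 50651 or weaker.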

How the data were processed

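ATAC-seq of 16 libraries was analysed from the MACS2 peak lists the authors deposited, 1 per library, with replicates called separately. Per the labels and methods, reads were trimmed with Trim Galore 0.4.1 and aligned to mm10 with Bowtie2 2.2.5, uniquely mapped reads were kept, duplicates were removed with Picard 2.26.0 and cut positions were shifted for the transposase. The deposited columns were a display score, the fold enrichment over background, -log10 p, -log10 q and the summit offset. The authors' fold enrichment and score were not compared between libraries. Read depth is not given in the sources used here.

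Peaks on chromosomes 1 to 19 and X were ordered by -log10 p, then by fold enrichment, and 49,000 were kept per library. Peaks overlapping by 1 bp were merged. The summit of a region was the median of its hi-77-/- empty summits, or of all its summits where it had no such peak. Genes were protein-coding genes of the GENCODE M21 annotation, and motifs were searched as exact letters on both strands. Held-out comparisons used an exact two-sided permutation test over libraries (SciPy 1.17.1) and were tested on simulated data. The simulated libraries of a group shared no technical effect, so a bias from such an effect could not be seen. Regions named were the 8 of highest median hi-77-/- empty rank with a peak in 4 and in 0 9aa-Ins libraries, those of the 8 genes with most regions, and those near genes of 8 lists, up to 6 genes a list. Genes named outside these were chosen after their values were seen. The members, lists and motifs were chosen with earlier results of these data known. Same-numbered libraries did not deviate together (correlation of deviations from group means -0.0167 to 0.0129 over 24 pairs), so no pairing by number was seen. The labels do not say whether such libraries were prepared together.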

Additional observations from a re-analysis of the deposited data

How the results depend on the processing

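The higher share of peaks with 9aa-Ins than in left-out GATA2 and hi-77+/+ libraries kept its direction in all 22 alternatives run for each (63.5 to 81.6 and 64.1 to 79.8 percentage points). Leaving out a library of either group compared gives 3 against 4, where the smallest p is 0.0571, so the threshold could not be reached. Over the left-out libraries the differences were 64.6 to 71.1 from GATA2, 66.9 to 73.9 from hi-77+/+ and -12.0 to -7.76 from hi-77-/- empty libraries. The lower share against left-out hi-77-/- empty libraries was the least stable result. It became 4.82 percentage points once every peak in the lists counted, -8.40 once peaks of 1 kb or wider were dropped (adjusted p = 0.0857 in an exact permutation test) and -1.70 when a peak had to cover 50% of the region. In a paired analysis with the replicate number as a block, the differences were -10.8, 69.3 and 72.1 from hi-77-/- empty, GATA2 and hi-77+/+ libraries, with p = 0.125 in an exact sign-flip test, the smallest it can give.

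The number of regions was 344 when absence was judged on all deposited peaks and 3912 with at least 3 of 4 and at most 1 of 4 libraries, and 1238 to 1541 without 1 library. The share with a 9aa-Ins peak was 72.9% with 50% of the kept peaks per library, 90.0% with all peaks, 64.4% with absence judged on all peaks, 83.4% with 50% cover, 70.9% under the looser rule and 71.8% to 79.0% without 1 library. The share with an EBF core was 24.9% with all peaks, 22.8% under the looser rule, 36.4% in the whole region (18.2% of all regions) and 19.2% in 100 bp around the summit (5.62% of all regions). With 50% of the kept peaks, 123 of the 1238 regions overlapped one chosen that way, and with all peaks 342. The WGATAR share was 36.3% in the whole region and 8.32% in 100 bp. The 1 kb window put 5.49% of regions at promoters. The alternatives for hi-77+/+, promoters and motifs other than the window were chosen after seeing the data. The cause of these shifts was not tested. Read depth is unknown, so a missing weak peak cannot be told from low coverage.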
